A study of Mus musculus with 6 samples.

Results

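The replication-dependent histone genes were described in the heads of 6 mouse embryos at E10.5, as 27 genes, each read by 1 probe set, of 19938 genes with a probe set of their own on the array. Members were the probe sets whose platform annotation gives a single gene symbol of the linker histone genes H1f1 to H1f6 or of the H2ac, H2bc, H3c and H4c series, with no condition on brightness. By type these were 5 genes for H1, 4 for H2A, 9 for H2B, 3 for H3 and 6 for H4. H1f4 had no probe set of its own and is not a member.

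The groups were 3 WT-labelled embryos, wild type for Tasp1, and 3 KO-labelled embryos, Tasp1-/-, all on the C57Bl6 background and from crosses between Tasp1+/- parents. The labels name neither a Cre nor a promoter for the deletion. Each head, dissected to prosencephalon and mesencephalon, was read on 1 Affymetrix array from 100 ng of total RNA. Tasp1 encodes Taspase1, a protease that cleaves MLL-family histone methyltransferases and the TFIIA precursor, and the comparison asked which transcripts depend on it. In such bulk tissue, fewer cells of a type and less RNA per cell cannot be told apart.

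Replication-dependent histone genes supply the H2A, H2B, H3 and H4 proteins of the nucleosome core and the H1 proteins that bind linker DNA. They are transcribed during S phase from clustered, intronless copies, many of which encode the same protein, and NPAT activates them downstream of cyclin E and CDK2. Their mRNAs end in a stem-loop bound by SLBP in place of a poly(A) tail. The E10.5 neuroepithelium is a tissue of rapidly cycling progenitors. Per the labels, biotinylated cRNA was made by the standard Affymetrix protocol; whether its priming needs a poly(A) tail is not stated there.

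The arrays were alike, with Pearson correlations between heads, across all 35556 probe sets, from 0.989 to 0.996. WT 1 stood apart on the first principal component (−42.7, other heads −3.73 to 19.4). WT 2 had the Xist and Kdm5d signals of a female (12.3 and 5.48) and the other heads those of males (Xist at most 5.24, Kdm5d at least 9.76). The Tasp1 signal was not lower in KO-labelled heads (8.50 to 8.63) than in WT-labelled ones (8.10 to 8.49). The labels do not say where its probe set lies relative to the deletion, so this signal does not check them. The neuroepithelial markers Sox2, Nes, Pax6, Otx2, Lhx2, Six3 and Emx2 had mean log2 signals of at least 8.38. The lowest was that of Six3, above 63.6% of probe sets.

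No histone gene was called different in array signal between KO-labelled and WT-labelled heads. Of the 27 genes, 0 were called higher and 0 lower in limma after Benjamini-Hochberg adjustment over all probe sets (smallest adjusted p = 0.80, for H2bc9). Over the whole table, 0% of probe sets were called higher and 0.0253% (9 probe sets) lower. The 9 fell to 0 with the replicate number as a block, with Xist signal as a covariate, with probe sets of 1 symbol alone, with dim ones left out as well, and without WT 2, KO 1, KO 2 or KO 3. Differences, KO-labelled minus WT-labelled in log2 signal, ran from −0.30 for H2bc9 to 0.26 for H2ac1. Their median was −0.02, with 10 genes higher and 17 (63.0%) lower. Of probe sets with 1 symbol 56.3% were lower, and of all probe sets 50.4%. The median over all probe sets was −0.00097, and over those with 1 symbol −0.01. Leaving out WT 1 or KO 1 turned the histone median to 0.010 or 0.0032.

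At an unadjusted p under 0.05 stood 2 higher genes, H1f1 and H2ac1, and 1 lower gene, H2bc9. These are 7.41% and 3.70% of the genes, against 3.46% higher and 2.25% lower over the whole table, and 1.51% and 2.51% among probe sets with 1 symbol. With Xist signal as a covariate, neither higher gene kept an unadjusted p under 0.05. The groups did not overlap for H1f1, H2ac1 and H2ac8, with the KO-labelled heads higher, nor for H1f5, H2bc9 and H4c4, with the KO-labelled heads lower. Each count is 3 of 27, or 11.1%, against 5.69% of all probe sets higher and 5.44% lower, and 4.15% and 6.76% of those with 1 symbol. A single gene makes up 3.70% of the family. With 3 heads against 3, an exact two-sided permutation test of a single gene cannot give a p below 0.1.

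The size of a difference that could have been missed can be read from the 95% confidence intervals of the fit. For 12 of the 27 genes the whole interval lay within 1.2-fold of equal signal, 7 of them among the 8 genes with a mean log2 signal of at least 12. For 26 genes it lay within 1.5-fold. H3c15 was the exception, with an interval of the ratio from 0.58 to 1.17. Ratios here are of array signals, which can understate ratios of transcripts.

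**Figure D1:**
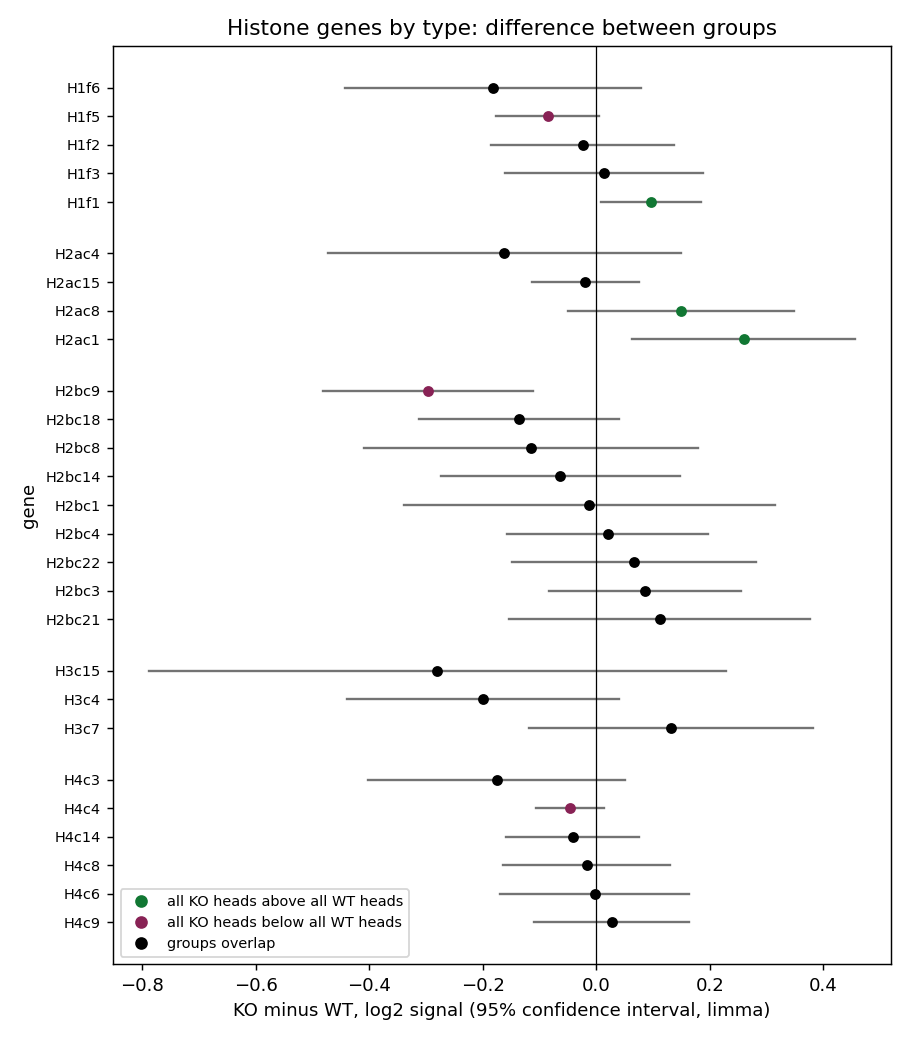
Difference between KO-labelled and WT-labelled heads for each of the 27 histone genes, grouped by type from H1 at the top to H4 at the bottom, in log2 signal on the x axis. Points are limma estimates and lines their 95% confidence intervals; the estimates run from −0.30 (H2bc9) to 0.26 (H2ac1), and the widest interval is that of H3c15.

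The H2B gene H2bc9 had the smallest p of the family. It read 11.73, 11.59 and 11.61 in WT-labelled and 11.34, 11.21 and 11.50 in KO-labelled heads. All KO-labelled heads lay below all WT-labelled heads, with KO 3 the closest. The ratio was 0.81 (difference −0.30, SE 0.08, unadjusted p = 0.0070, limma adjusted p = 0.80). No other H2B gene had an unadjusted p under 0.05, and the 9 differences of this type had a median of −0.01. That median ran from −0.13 without KO 3 to 0.059 without WT 1.

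The bases before the RefSeq start of H2bc9 (build GRCm38.p6, chr13:23543445-23543644, minus strand, read 5′ to 3′) are shown because this gene had the smallest p. Capitals mark exact matches, on either strand, to CCAAT, which NF-Y binds, to the TATA-box letters TATAAA, and to ATTTGCAT, the octamer bound by OCT1. In this stretch the matches are to CCAAT alone.
H2bc9: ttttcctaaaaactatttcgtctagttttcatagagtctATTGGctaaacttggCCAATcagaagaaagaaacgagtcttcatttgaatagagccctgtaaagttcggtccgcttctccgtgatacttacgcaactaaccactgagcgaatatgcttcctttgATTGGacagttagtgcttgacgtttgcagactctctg

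Windows from 250 bases before to 50 after the start were found in that RefSeq table for 23 of the 27 genes, and not for H2bc21, H2bc4, H3c7 and H4c14. CCAAT was in 20 of the 23 windows, against 37.4% of all 32851 windows, and TATAAA in 15, against 13.6%. Matches were counted at any position in the window, for TATAAA from −250 in H4c6 to 21 in H2ac15 relative to the start. The 15 are therefore not a count of TATA boxes. The octamer was in 8 windows, 3 of H2A and 5 of H2B genes, against 1.74% of all windows. H2bc9 is the H2B gene with the smallest p and, with H2bc22, is without these octamer letters in its window. H2bc22 differed in the other direction, by 0.07, and a link between letters and differences was not tested. Some H2A and H2B genes lie head to head and so share matches. A match describes the letters and is not a measured site.

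Among the other H2B genes, H2bc14 and H2bc3 had the brightest signals and H2bc22 the dimmest. H2bc14 read 12.73, 12.56 and 12.47 in WT-labelled and 12.43, 12.45 and 12.69 in KO-labelled heads, so the groups overlapped (difference −0.06, limma adjusted p = 0.93). H2bc3 read 12.27, 12.13 and 12.05 against 12.16, 12.20 and 12.35, with WT 1 inside the KO-labelled range (0.09, limma adjusted p = 0.88). H2bc22 was near the dim end at 6.75 to 6.79 against 6.72 to 6.99. Its mean was above only 40.7% of probe sets.

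H2bc18, which lies in the chromosome 3 cluster, read 11.33, 11.12 and 11.09 in WT-labelled and 11.01, 10.99 and 11.13 in KO-labelled heads. KO 3 lay within the WT-labelled range, so the groups overlapped (ratio 0.91, limma adjusted p = 0.86). The difference of −0.14 was −0.06 without WT 1. The remaining H2B genes, H2bc1, H2bc21, H2bc4 and H2bc8, had overlapping groups and differences from −0.11 to 0.11.

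Among the H2A genes, H2ac1 showed the largest difference upward. It read 8.87, 8.59 and 8.64 in WT-labelled and 8.93, 8.94 and 9.001 in KO-labelled heads. The KO-labelled heads were close together and above every WT-labelled head, of which WT 1 was the nearest. The ratio was 1.2 (difference 0.26, SE 0.08, unadjusted p = 0.017, limma adjusted p = 0.85). RefSeq lists this gene also as Th2a, the testis form of H2A.

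H2ac1 and the H2B gene H2bc1, listed also as Th2b, lie head to head with 280 bases between their starts. H2bc1 was named for that position after its values were seen. It read 9.09, 8.82 and 8.68 in WT-labelled and 8.76, 8.70 and 9.09 in KO-labelled heads, a difference of −0.01 (interval −0.34 to 0.31, limma adjusted p = 0.99). Thus the groups were apart for H2ac1 and overlapped for its neighbour, while the intervals of both differences overlap and the difference between them was not tested.

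A second such pair is H2bc8 and H2ac8, with 179 bases between their starts. H2ac8 was dim, at 5.77, 5.80 and 5.72 in WT-labelled and 5.84, 6.04 and 5.86 in KO-labelled heads. The groups did not overlap, but the gap between them was smaller than the spread of the KO-labelled heads (difference 0.15, SE 0.08, limma adjusted p = 0.86). Its mean was above only 26.1% of probe sets. H2bc8, also named after its values were seen, read 8.94, 8.69 and 8.68 against 8.42, 8.72 and 8.83, with KO 1 lowest (−0.11, limma adjusted p = 0.91).

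Bases between the starts of each pair are shown, since the stretch lies upstream of both genes. The first is the 250 of 280 bases before the start of H2ac1 (GRCm38.p6, chr13:23934187-23934436, plus strand) and the second the whole stretch before H2bc8 (chr13:23571221-23571399, plus strand). Capitals are as above. Each holds the octamer once, on the strand of H2bc1 in the first pair and of H2bc8 in the second.
H2ac1: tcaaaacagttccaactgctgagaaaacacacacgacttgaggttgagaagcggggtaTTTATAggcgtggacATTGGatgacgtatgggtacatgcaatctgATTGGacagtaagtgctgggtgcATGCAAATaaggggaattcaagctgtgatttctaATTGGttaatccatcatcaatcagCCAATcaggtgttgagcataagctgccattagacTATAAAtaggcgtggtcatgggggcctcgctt
H2bc8: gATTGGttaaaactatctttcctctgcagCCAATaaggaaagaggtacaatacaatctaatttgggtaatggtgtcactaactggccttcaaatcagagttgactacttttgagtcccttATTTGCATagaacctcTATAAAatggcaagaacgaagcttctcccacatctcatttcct

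The brightest H2A gene, H2ac15, read 12.99, 13.05 and 12.99 in WT-labelled and 12.93, 12.99 and 13.06 in KO-labelled heads, and its groups overlapped (−0.02, interval −0.11 to 0.08). H2ac4 read 10.98, 10.65 and 10.45 against 10.64, 10.497 and 10.45. Its highest value was that of WT 1, and the difference of −0.16 was −0.02 without that head. The median over the 4 H2A genes was 0.07. Without H2ac8, the only one of them below the brightness filter used as an alternative (a mean of 7.06), it was −0.02.

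**Figure D2:**
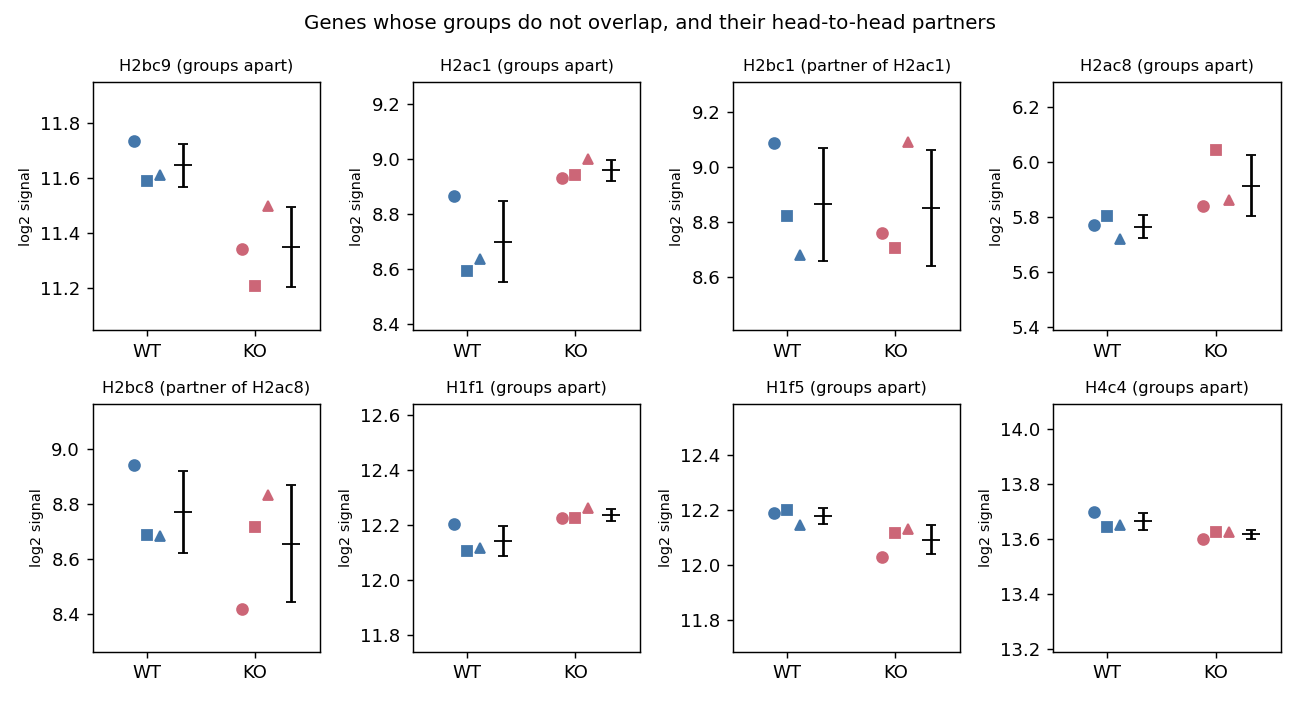
Log2 signal of the 6 histone genes whose groups do not overlap and of H2bc1 and H2bc8, the head-to-head partners of H2ac1 and H2ac8; symbols are heads (circle 1, square 2, triangle 3), bars the mean and SD of 3 heads, and every y axis spans the same width. The gap is widest for H2bc9 (11.64 against 11.35) and H2ac1 (8.70 against 8.96), and the means of H2bc1 were 8.86 and 8.85.

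The linker histone genes H1f1 and H1f5 had narrow spreads and opposite directions. H1f1 read 12.20, 12.11 and 12.12 in WT-labelled and 12.22, 12.23 and 12.26 in KO-labelled heads, with KO 1 only just above WT 1. The ratio was 1.07 (difference 0.10, SE 0.04, unadjusted p = 0.036, limma adjusted p = 0.86). H1f5 read 12.19, 12.20 and 12.14 against 12.03, 12.12 and 12.13, again with a narrow gap. The ratio was 0.94 (difference −0.09, SE 0.04, limma adjusted p = 0.86).

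The testis linker gene H1f6 was dim in all heads, at 6.37, 6.20 and 6.13 against 6.13, 5.87 and 6.16, and its groups overlapped (−0.18, limma adjusted p = 0.87). The other linker genes, H1f2 and H1f3, differed by −0.02 and 0.01. The 150 bases before the H1f1 start (GRCm38.p6, chr13:23763518-23763667, plus strand) are given as an H1 promoter with both the CCAAT and the TATAAA letters and no octamer.
H1f1: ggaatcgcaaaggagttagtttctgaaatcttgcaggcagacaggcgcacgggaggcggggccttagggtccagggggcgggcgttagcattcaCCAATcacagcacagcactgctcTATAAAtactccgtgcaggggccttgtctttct

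Of the 6 H4 genes 5 were lower, by 0.18 at most, and the median difference was −0.03. H4c4 read 13.70, 13.64 and 13.65 in WT-labelled and 13.60, 13.62 and 13.63 in KO-labelled heads. The groups did not overlap, yet the ratio was only 0.97 (difference −0.05, SE 0.03, limma adjusted p = 0.86). With quantile normalization this difference was −0.00021. Its mean lay above 99.9% of probe sets, and how far the array still responds to a change at such a signal was not tested.

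H4c14, on chromosome 3, read 12.66, 12.59 and 12.64 against 12.56, 12.52 and 12.69, with KO 3 the highest head (−0.04, limma adjusted p = 0.92). H4c3 read 10.98, 10.70 and 10.63 against 10.54, 10.56 and 10.69. WT 1 again was the highest head, and the difference of −0.18 was −0.07 without it. H4c8 was the dimmest H4 gene, at 8.18 to 8.28 in WT-labelled and 8.16 to 8.24 in KO-labelled heads (−0.02, limma adjusted p = 0.98). The remaining H4c6 and H4c9 differed by −0.0029 and 0.03. The 150 bases before H4c4 (GRCm38.p6, chr13:23581418-23581567, plus strand) show the letters TATAAA and CCAAT side by side close to the start.
H4c4: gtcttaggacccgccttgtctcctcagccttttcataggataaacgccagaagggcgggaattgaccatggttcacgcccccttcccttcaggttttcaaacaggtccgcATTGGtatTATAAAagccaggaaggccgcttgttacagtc

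The H3 genes had the widest spread. H3c15, on chromosome 3, read 8.73, 8.30 and 8.35 in WT-labelled and 7.71, 8.44 and 8.40 in KO-labelled heads. KO 1 stood below and WT 1 above all other heads, and the other 4 heads lay together (ratio 0.82, difference −0.28, SE 0.21, limma adjusted p = 0.88). Without KO 1 the difference was −0.04. H3c4 read 8.40, 8.10 and 8.21 against 7.91, 8.06 and 8.14 (ratio 0.87, limma adjusted p = 0.86), with KO 1 lowest and WT 1 highest here too. Its difference of −0.20 was −0.12 without WT 1. H3c7 was dim, at 5.24, 5.04 and 5.34 against 5.46, 5.35 and 5.21, and its groups overlapped (0.13, limma adjusted p = 0.88).

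**Figure D3:**
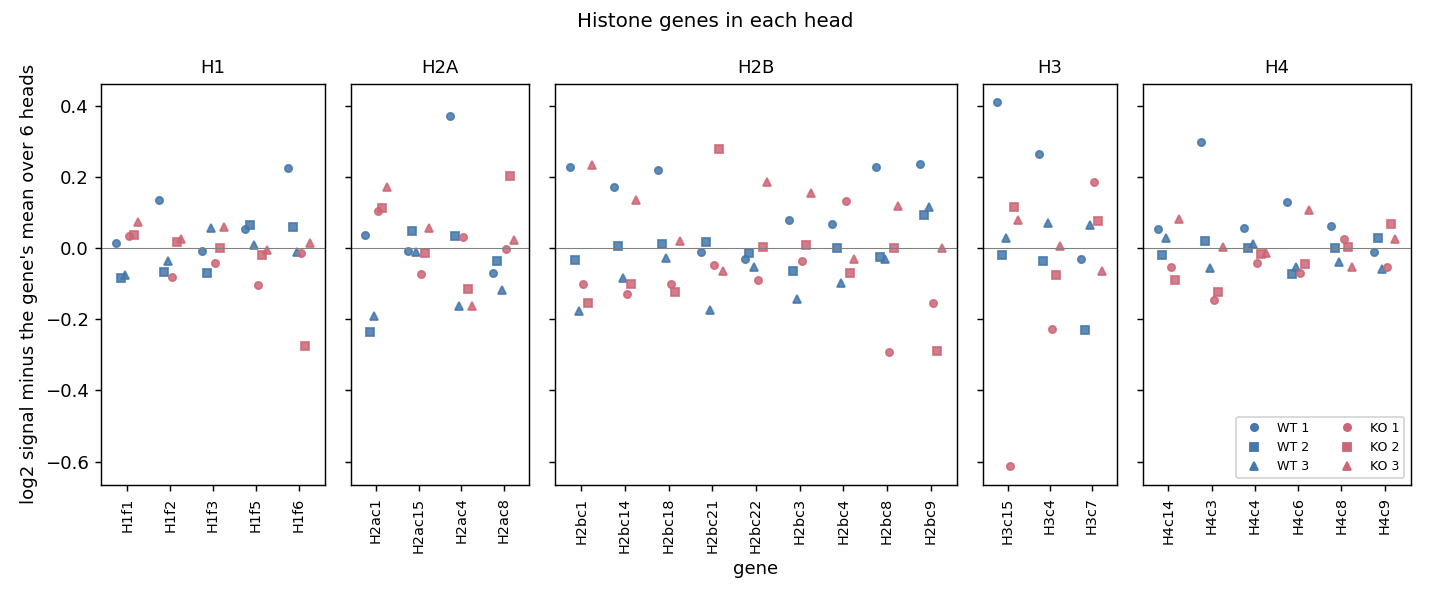
Log2 signal of every histone gene in every head (y axis), as the deviation from that gene's mean over the 6 heads, by type; blue symbols are WT-labelled and red KO-labelled heads. WT 1 (blue circles) is the highest head for 13 of 27 genes and KO 1 (red circles) the lowest for 10, and KO 1 is farthest from the rest at H3c15.

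WT 1 was the highest head for 13 of the 27 genes and KO 3 for 8, while KO 1 was the lowest for 10 and WT 3 for 7. Over the probe sets with 1 symbol, WT 1 was the highest for 26.5% and KO 3 for 11.9%, while KO 1 was the lowest for 15.5% and WT 3 for 13.9%. Among those of them with a mean signal of at least 12, WT 1 was the highest for 45.03% and KO 1 the lowest for 48.3%. Of the 8 histone genes as bright, WT 1 was the highest for 3 and KO 1 the lowest for 4. The part of brightness in the histone pattern was not tested.

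The median deviation of the family from its mean over heads was 0.07 in WT 1, −0.01 in WT 2 and −0.04 in WT 3. It was −0.05 in KO 1, −0.01 in KO 2 and 0.03 in KO 3. The groups overlapped, and their means were 0.0047 ± 0.06 in WT-labelled and −0.01 ± 0.04 in KO-labelled heads (SD, n = 3 each). Of the 5 types, the groups did not overlap in this measure for H2A alone, where KO-labelled heads were higher. There KO 1, at 0.016, and WT 1, at 0.014, were almost level.

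By position, 23 members lie on chromosome 13 and 4 on chromosome 3 in assembly GRCm38.p6, and 0 on chromosome 2, which carries Tasp1. The median difference was −0.02 on chromosome 13 and −0.09 on chromosome 3, where the 4 genes overlapped between groups in every case.

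Probe sets that carry several histone symbols were not members, but they read the same families. There were 26, of which 2 pairs held the same values, so they are not separate measurements. The 10 annotated to 12 H3 genes each had mean signals from 13.56 to 13.79, and their differences ran from −0.06 to −0.05. The 7 for H2B genes differed by −0.08 to −0.04, the 6 for H4 genes by −0.06 to −0.03 and the 2 mainly for H2A genes by −0.04 to −0.0059. The last, shared by H2bc6 and H1f4, differed by −0.09.

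All 26 were thus lower in KO-labelled heads, by little, and the groups overlapped in all 26. KO 1 was the lowest head in 22 of them. None was called (smallest limma adjusted p = 0.86, and 0 at an unadjusted p under 0.05). Probe sets of the same type carry largely the same symbols, so the 26 are not separate readings of a shift. The 24 with more than 2 symbols had mean signals from 13.02 to 13.79. How far the array still responds to a change at such signals was not tested. Of probe sets with 1 symbol and a mean signal of at least 12, 64.6% were lower. Because the coding sequences of histone copies are nearly alike, a probe set listed under 1 symbol may also read its copies, and gene-by-gene values are uncertain to that extent.

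**Figure D4:**
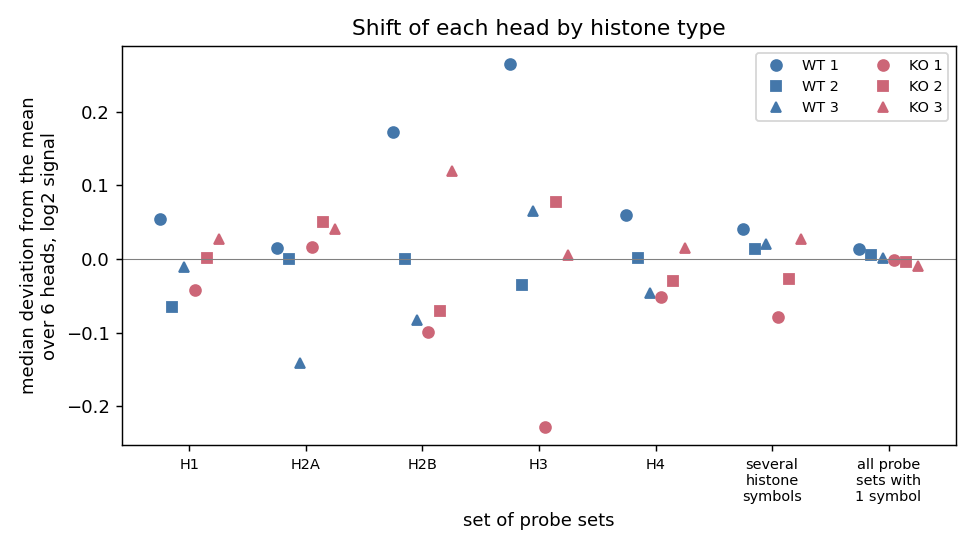
Median deviation of each head from the mean over 6 heads (y axis, log2 signal) for each histone type, for the 24 probe sets that carry more than 2 histone symbols, and for all probe sets with 1 symbol. WT 1 (blue circle) is the highest and KO 1 (red circle) the lowest head for H2B, H3, H4 and the shared probe sets, and for H2B, KO 3 (red triangle) lies above WT 2 and WT 3.

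Histone variants that are made outside S phase or by genes of their own gave 9 genes with a probe set, of 11 listed (H3f3b and H1f0 had none with 1 symbol). Of these, 0 were called, and 2 were lower at an unadjusted p under 0.05, where 2.25% of all probe sets and 2.51% of those with 1 symbol were lower. Cenpa, which encodes the centromeric H3 variant, read 11.04, 11.02 and 11.03 in WT-labelled and 10.90, 10.89 and 10.88 in KO-labelled heads. The groups did not overlap and each was narrow (ratio 0.91, SE 0.03 in log2, limma adjusted p = 0.77). H2az2, a gene for H2A.Z, had a ratio of 0.93 (limma adjusted p = 0.86) and Macroh2a2, for macroH2A, one of 0.98. The median over the 9 was −0.02.

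Of 31 genes for transcription and end processing of these mRNAs, 30 had a probe set, 15 were higher and 15 lower, 0 were called and the median was −0.0018. The groups did not overlap for 3 of the 30, Fip1l1 and Eri1 being higher and Nfya lower. Over all probe sets, the groups were apart for 5.69% with KO-labelled heads higher and for 5.44% with them lower. The interval lay within 1.2-fold for 27 of the 30. Eri1, a nuclease that trims histone mRNA ends, differed by 0.08 and was named after its values were seen. The smallest p-values belonged to Fip1l1 (0.08), Cpsf2 (−0.11) and Nfya (−0.09), which encode polyadenylation and cleavage factors and a CCAAT-binding subunit, each with a limma adjusted p of 0.86. For Slbp, the stem-loop binding protein, the probe set with the higher signal differed by 0.06. Its other probe set differed by 0.11 with an unadjusted p of 0.034 and the groups apart. The activator gene Npat differed by 0.02; it and Slbp were named after their values were seen.

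Histone chaperones and importins (21 of 22 listed genes with a probe set) had a median of 0.0077, with 0 called. The smallest p-values were those of the importin Ipo5 (0.06), the chaperone subunit Rbbp7 (0.07) and the H1 and H3-H4 chaperone Nasp (−0.08). Genes of S phase and DNA replication (19 of 20) had a median of −0.03, 4 being higher and 15 lower, and 0 were called. Of all probe sets with 1 symbol 56.3% were lower, and WT 1 was the highest head for 11 of the 19. Pcna, the replication clamp, differed by 0.10 (unadjusted p = 0.024, limma adjusted p = 0.85). Rrm2, a ribonucleotide reductase subunit, differed by −0.10 and Gins1, of the replicative helicase, by −0.17. Pcna and Gins1 lie on chromosome 2, which carries Tasp1, and any part of that position in their differences was not tested.

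Markers of the cell types that such a head could hold were read beside these values. In primitive erythroid cells, which also divide at this stage, 4 of 5 markers had a probe set. Their mean log2 signal was 12.03 to 12.11 in WT-labelled and 11.93 to 12.02 in KO-labelled heads, so it was lower in all KO-labelled heads. Hbb-bh1, an embryonic globin, differed by −0.21 and Alas2, of heme synthesis, by −0.13 (limma adjusted p = 0.80 and 0.86). The other globins of the list, Hba-x and Hbb-y, differed by −0.02 and −0.0005. Whether this had a part in the histone values was not tested.

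The mean signal overlapped between groups for the other marker lists. It was 10.31 to 10.53 in WT-labelled and 10.30 to 10.34 in KO-labelled heads for neuroepithelium (7 of 8 markers), 9.91 to 10.05 and 9.86 to 10.13 for mesenchyme (5 of 5), and 9.51 to 9.61 and 9.52 to 9.61 for endothelium (5 of 5). For macrophages (5 of 5) it was 6.93 to 6.96 and 6.76 to 6.94, for surface ectoderm (5 of 5) 8.60 to 8.84 and 8.65 to 8.79, and for early neurons (5 of 5) 9.96 to 10.24 and 9.75 to 10.19. The early neuron markers were lower in 5 of 5 and their groups overlapped in each. The dimmest marker was Aif1 of macrophages, with a mean signal of 5.90. No marker was called in limma, and 5 had an unadjusted p under 0.05, namely Lhx2, Emx2, Hbb-bh1 and C1qb, which were lower, and Cdh1, which was higher. The shares over all probe sets were 2.25% lower and 3.46% higher. The forebrain selector gene Lhx2, on chromosome 2 with Tasp1, differed by −0.33 and the cortical regulator Emx2 by −0.32. The complement gene C1qb differed by −0.30 and the epithelial cadherin gene Cdh1 by 0.16. Other markers of these lists went the other way: Epcam of surface ectoderm differed by −0.11 with the groups apart, Krt18 by −0.09, and Aif1 of macrophages by 0.09. The median was −0.0071 over the surface ectoderm markers, 3 of 5 being lower, and −0.07 over the macrophage markers, also with 3 of 5 lower.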

How the data were processed

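The authors deposited a table of log2 signals, 1 per probe set and array, running from 2.73 to 14.4 with array medians from 7.35 to 7.45. MAS5 and Affymetrix Expression Console are listed, with no role or version, per the submitters' processing notes. Steps for background, scaling and probe summary were not given in the sources used here. These deposited log2 values were used as they are.

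Probe sets were named from the platform annotation: 21789 of 35556 had 1 symbol, 1621 several, and 12146 are unnamed here. All 6 heads were fitted with limma 3.58.1 (R 4.3.3; lmFit, then eBayes with trend). Two-sided p-values were adjusted by Benjamini-Hochberg across the 35556 probe sets, with a threshold of 0.05 and no brightness filter. The number of arrays limits the precision. The procedure was tested on simulated data. The labels name the heads as biological replicates.

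The genes named in each type were the 2 brightest, the dimmest and the 3 with the smallest p, and in each related list up to 3 with the smallest p; related genes were read from their brightest probe set. The members and lists were chosen with earlier results of these data known. Promoters are RefSeq's (GRCm38.p6). Heads with the same replicate number did not deviate together (correlations −0.14, −0.14 and −0.29), so the number was not used as a block. Alternatives were other normalizations, 16 added to the linear signal, other sets of probe sets, other variance models, the block, Xist as a covariate and each head left out. Figures were drawn with matplotlib 3.10.9.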

Additional observations from a re-analysis of the deposited data

How the results depend on the processing

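The counts of 0 called histone genes in each direction held under all 10 alternatives that keep every head, with each of the 6 heads left out, and with the probe sets of several histone symbols taken in, a setting chosen after seeing the data. The smallest limma adjusted p of any member over these fits was 0.299, with 1 probe set per gene. The number of higher genes at an unadjusted p under 0.05, 2 in the report, was 0 with median centring and with Xist signal as a covariate, and 1 without the mean-variance trend and with the replicate block. It ran from 0 to 2 with a head left out, being 0 without WT 2, WT 3 or KO 3. The number of lower genes, 1 in the report, was 2 with quantile normalization and ran from 1 to 3 with a head left out, being 3 without WT 3 or KO 3. The H2A median of 0.07 was −0.019 with the dimmest 40% of probe sets left out, as H2ac8 was then not tested, and −0.013 with the shared probe sets. With a head left out it ran from 0.034 to 0.10. The H3 median of −0.20 ran from −0.27 to −0.043 with a head left out, the last without KO 1, and was −0.051 with the shared probe sets. The H1 median of −0.024 ran from −0.063 to 0.013 and the H2B median of −0.013 from −0.13 to 0.059, both highest without WT 1. The median of the whole family ran from −0.053 to 0.010 with a head left out, being above 0 without WT 1 and without KO 1. Of 300 differences of the 19 named genes under the alternatives, 293 kept their direction and side of the threshold. This count says little, since no member came near the threshold in any fit. Other sets of probe sets, other variance models and the block also leave each difference unchanged by construction. H2ac15 changed sign with quantile normalization (0.0061), with Xist as a covariate (0.0017) and without KO 1 (0.013). H2bc14 (0.0072) and H4c8 (0.010) changed sign without WT 1, and H2bc22 (−0.0094) and H4c8 (0.0058) without KO 3. With a head left out, H2bc14 ran from −0.147 to 0.0072, H2bc22 from −0.0094 to 0.128, H4c8 from −0.040 to 0.010 and H2ac15 from −0.053 to 0.013. H2bc9 ran from −0.37 to −0.23 and H2ac1 from 0.21 to 0.34 over all fits. With a head left out, the values nearest to 0 were −0.055 for H1f5 (without KO 1), −0.091 for H1f6 and 0.085 for H2ac8 (both without KO 2), 0.030 for H2bc3 (without KO 3), 0.050 for H3c7 (without WT 2) and −0.0065 for H4c14 (without KO 2). The replicate block, with numbers that did not pair the heads, changed no call of a histone gene after adjustment, while the 9 calls over the whole table became 0. A planned comparison of the encoded proteins was not run. The causes of these changes were not tested, and the number of heads limits what could be detected.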
